A study of Mus musculus with 4 samples.

Results

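The regions described here are the narrow DNMT3B regions whose deposited annotation places them in an intron and nowhere else. They were chosen from the MACS list of narrow regions by 4 conditions: a distance of 0 to the nearest gene, the wording "intron of", no wording of containment in or overlap with a gene feature, and a chromosome other than 16. The rule kept 342 regions of 1705 distinct regions, and of 1371 off chromosome 16. A further 79 regions with the same wording lie on chromosome 16 and are left out. DNMT3B was mapped by chromatin immunoprecipitation and sequencing (ChIP-seq) in lung metastases of 4T1, a mammary tumour cell line grown in BALB/c mice. The series holds 2 libraries made with the DNMT3B antibody and 2 input libraries without antibody, both kinds with the lung labels 3 and 5. The labels give no genotype, treatment, time or age that differs between them, and do not say whether the lungs came from separate mice. A metastatic lung holds lung and immune cells beside tumour cells, and no value in the files tells them apart. Neither list gives a read count, score or p-value for a region or a value for a library, so depth is unknown and no spread between replicates can be given. P-values below describe where listed regions lie.

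DNMT3B is a de novo DNA methyltransferase: it adds methyl groups to cytosines, mostly where a cytosine is followed by a guanine (CpG). Most CpGs of the mammalian genome are methylated, while CpG-rich stretches around gene starts, called CpG islands, are mostly kept free of methylation. Such stretches often run from the promoter through the first exon into the first intron. DNMT3B has also been mapped to the bodies of transcribed genes, where introns make up most of the sequence.

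Where a gene start is listed, most intron-only regions stood close to it. The list of broad enrichment, made with SICER, gives gene positions for the hosts of 169 of the 342 regions, and 166 of these regions (98.2%, exact 95% interval 94.9 to 99.6) lay between the listed ends of the host. That share was largely set in advance, since the wording "intron of" places a region inside its host. In addition, a listed transcript reaching the region was used where there was one, and otherwise the longest. Of the 166, 110 (66.3%, 58.5 to 73.4) lay within 1000 bp of the gene start and 128 (77.1%, 70.0 to 83.3) within 2000 bp. The median distance from the start was 630.5 bp, with quartiles of 350 and 1767 bp, and the median region lay 2.79% of the way into its gene. Only 27 regions (16.3%) lay over 10 kb in. Before the middle of the gene stood 142 regions (85.5%, 79.3 to 90.5), and 74.7% stood in its first 10%. The lists do not say which intron holds a region.

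The positions themselves are coarse, which touches these distances. They carry at most 6 significant digits, so 41 regions are known to steps of 10 bp, 150 to steps of 100 bp and 151 to steps of 1000 bp, and 182 regions have equal start and end. Distances of single regions below carry these steps, so for regions known to 1000 bp a distance under 1000 bp is not resolved. Among the 89 regions known to 10 or 100 bp, 70 (78.7%, 68.7 to 86.6) lay within 2000 bp of the start, close to the share over all 166. The listed hosts are genes paired with a broad island, so these distances cover that part of the regions. Listed gene positions also depart from GRCm38, the assembly that the submitters' processing notes name as mm10. Hosts were split by their lower listed position, which is the gene start on the plus strand and the gene end on the minus strand. Where it lay within 1 kb of that in GRCm38, 20 of 25 regions (80%) stood within 2000 bp of the listed gene start. Where it lay farther off, 108 of 141 did (76.6%). The difference of 3.40 percentage points had a 95% interval from -16.7 to 16.9 (adjusted p = 0.902, Fisher's exact test). That interval is too wide to show equal shares. Distances use deposited positions only, so the split cannot show how the build bears on them. In addition, the 166 regions were all selected as lying between listed gene ends. For 141 of them the lower listed position was over 1 kb from that of GRCm38. Which build the region and gene positions come from is not known, and positions are printed as deposited.

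To show the CpG content at such starts, promoter windows of 300 bases (250 before to 50 after an annotated start) are printed for 5 hosts. These have at least 2 intron-only regions, a listed start and a single RefSeq start for the window. These 5 were picked after their values were seen: Cpt1a and Notch1 have regions near the start only, Wnt3a has both kinds, and Ltbp3 and Prrx2 have regions over 10 kb in only. Each is given 5′ to 3′ from RefSeq, GRCm38.p6, with CpG dinucleotides in capitals. Their positions are in that build and were not set beside the deposited region positions, whose build is not known. The lower listed position differed from GRCm38 by 0.974 kb for Cpt1a and 0.003 kb for Ltbp3. The difference was -144.481 kb for Notch1, -186.493 kb for Wnt3a and -144.178 kb for Prrx2. These differences are from the lower end of the RefSeq gene, which for Cpt1a and Prrx2 is not the start used for the window. The narrow regions themselves are not printed, since no genome of their build was used here.
Cpt1a, chr19:3323051-3323350, plus strand: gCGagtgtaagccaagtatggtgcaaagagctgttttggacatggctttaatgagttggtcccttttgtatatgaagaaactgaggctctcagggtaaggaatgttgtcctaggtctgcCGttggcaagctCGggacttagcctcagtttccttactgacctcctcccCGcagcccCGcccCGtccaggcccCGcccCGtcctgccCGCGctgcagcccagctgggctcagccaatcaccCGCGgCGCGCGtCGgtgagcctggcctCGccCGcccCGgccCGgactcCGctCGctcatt
Notch1, chr2:26503773-26504072, minus strand: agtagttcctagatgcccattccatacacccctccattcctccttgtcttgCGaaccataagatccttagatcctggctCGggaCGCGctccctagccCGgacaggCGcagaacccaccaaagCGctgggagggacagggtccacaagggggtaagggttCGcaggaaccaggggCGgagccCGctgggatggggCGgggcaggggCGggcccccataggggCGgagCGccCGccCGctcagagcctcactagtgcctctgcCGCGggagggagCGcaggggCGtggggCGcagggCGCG
Wnt3a, chr11:59290702-59291001, minus strand: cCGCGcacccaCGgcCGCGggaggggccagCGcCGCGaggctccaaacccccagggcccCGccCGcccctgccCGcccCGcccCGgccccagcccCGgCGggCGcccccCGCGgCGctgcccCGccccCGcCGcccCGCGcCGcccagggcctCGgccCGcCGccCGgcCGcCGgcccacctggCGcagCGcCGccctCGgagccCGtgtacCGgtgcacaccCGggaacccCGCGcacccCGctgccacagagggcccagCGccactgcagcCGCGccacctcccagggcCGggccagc
Ltbp3, chr19:5740650-5740949, plus strand: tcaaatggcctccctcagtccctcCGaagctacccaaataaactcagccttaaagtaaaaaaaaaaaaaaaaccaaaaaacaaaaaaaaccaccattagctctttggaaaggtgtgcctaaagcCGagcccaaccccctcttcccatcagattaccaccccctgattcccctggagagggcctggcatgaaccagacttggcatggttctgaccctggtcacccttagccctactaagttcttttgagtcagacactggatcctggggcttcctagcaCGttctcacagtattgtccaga
Prrx2, chr2:30845117-30845416, plus strand: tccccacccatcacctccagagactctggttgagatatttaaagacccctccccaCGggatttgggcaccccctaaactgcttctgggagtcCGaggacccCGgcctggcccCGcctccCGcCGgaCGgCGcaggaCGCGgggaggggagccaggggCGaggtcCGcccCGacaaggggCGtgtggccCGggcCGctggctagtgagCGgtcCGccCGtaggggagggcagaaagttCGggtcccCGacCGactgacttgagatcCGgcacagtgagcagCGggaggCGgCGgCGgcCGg

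The windows of Cpt1a, Notch1 and Wnt3a held 22, 23 and 45 CpGs. Of the hosts with deep regions only, Prrx2 held 28 and Ltbp3 held 3. The CG motif, which reads the same on both strands, occurs in 94.6% of the 32851 windows in the table, with a median of 7 CpGs and quartiles of 3 and 20. A promoter window was matched for 240 of 316 protein-coding hosts (75.9%). This is under the 80% set as the minimum for a comparison, so a comparison of CpG content between hosts and other genes is void and is not given.

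**Figure D1:**
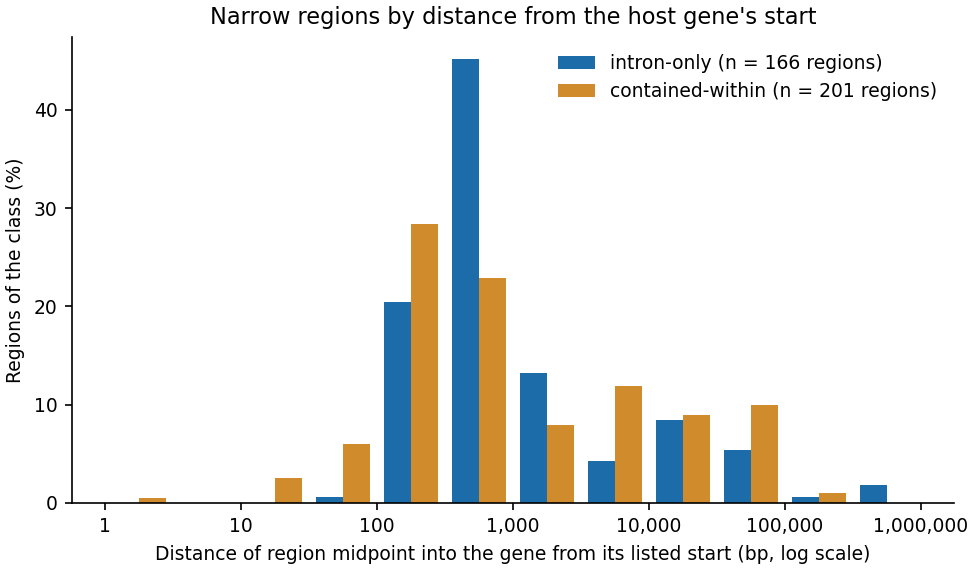
Distance of narrow regions from the listed start of their gene (horizontal axis, bp on a log scale), as the percentage of each class (vertical axis), for 166 intron-only and 201 contained-within regions with listed gene positions. The median distance is 630.5 bp for intron-only regions (quartiles 350 and 1767) and 544 bp for contained-within regions (quartiles 209 and 6491), and both classes reach beyond 10 kb.

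Narrow regions described as contained within a gene feature were the nearest comparison. There were 520 of them off chromosome 16, and 201 lay between listed gene ends. Near the start both classes were frequent: 60.2% of contained-within regions lay within 1000 bp, 6.07 percentage points fewer than of intron-only regions (95% interval of the difference -3.86 to 15.7, adjusted p = 0.302, Fisher's exact test). From 1 to 2 kb stood 10.8% of intron-only and 4.48% of contained-within regions (adjusted p = 0.0488 over 9 comparisons and 0.0542 over 8, Fisher's exact test), which is not called either. Beyond the middle of the gene stood 24 of 166 intron-only regions (14.5%) against 55 of 201 contained-within regions (27.4%), a difference of -12.9 points (-20.9 to -4.52, adjusted p = 0.0145, Fisher's exact test). Regions of 1 gene, such as the contained-within regions of Plec, were counted separately, and this comparison was not repeated with 1 region per gene. The rule keeps intron-only regions out of exons, and its part in this difference was not tested. Unless another number is given, p-values of class comparisons are adjusted over 9 comparisons, of which 3 were planned and 6 were added after values were seen.

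Genes that host intron-only regions were longer. The median RefSeq length was 29.1 kb for intron-only regions (quartiles 12.7 and 64.1, n = 341 matched regions) and 18.8 kb for contained-within regions (7.57 and 48.4, n = 519). Of intron-only regions, 118 (34.6%) lay in genes of 50 kb or more, against 128 contained-within regions (24.7%), a difference of 9.94 points (3.72 to 16.2, adjusted p = 0.0145, Fisher's exact test). The rule asks for an intron, and its part in this difference was not tested. With the regions known to 10 or 100 bp alone, the difference was 3.96 points and did not pass (adjusted p = 0.416, Fisher's exact test). These are regions at positions below 100 Mb of a chromosome.

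Most intron-only regions lay outside broad islands. Of the 342, 100 (29.2%, 24.5 to 34.4) shared at least 1 bp with an island, beside 31.3% of all 1371 narrow regions off chromosome 16, which include them. By class the share ran from 18.5% (22 of 119 regions of the remaining class, 11.96 to 26.6) to 36.7%. Contained-within regions did so in 36.7%, 7.49 points more (95% interval of intron-only minus contained-within -13.7 to -1.04, adjusted p = 0.0488 over 9 comparisons, Fisher's exact test). That adjusted p depended on the number of comparisons. It was 0.0407 over the 3 planned comparisons alone and 0.0542 over 8, before the comparison of positions beyond the middle of the gene was added with values already seen, so the difference is not called here. Regions at a gene edge or up to 1 kb upstream did so in 29.7% (n = 390), a difference of -0.50 points (-7.07 to 6.13, adjusted p = 0.935, Fisher's exact test). The difference from contained-within regions also failed to pass under 9 of 10 other settings. It was -5.51 points within chromosomes and -3.78 without chromosomes 8 and 19, and -3.43 with islands of at least the median width (adjusted p = 0.141, 0.381 and 0.342, by the Cochran-Mantel-Haenszel test for the first and Fisher's exact test for the others).

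**Figure D2:**
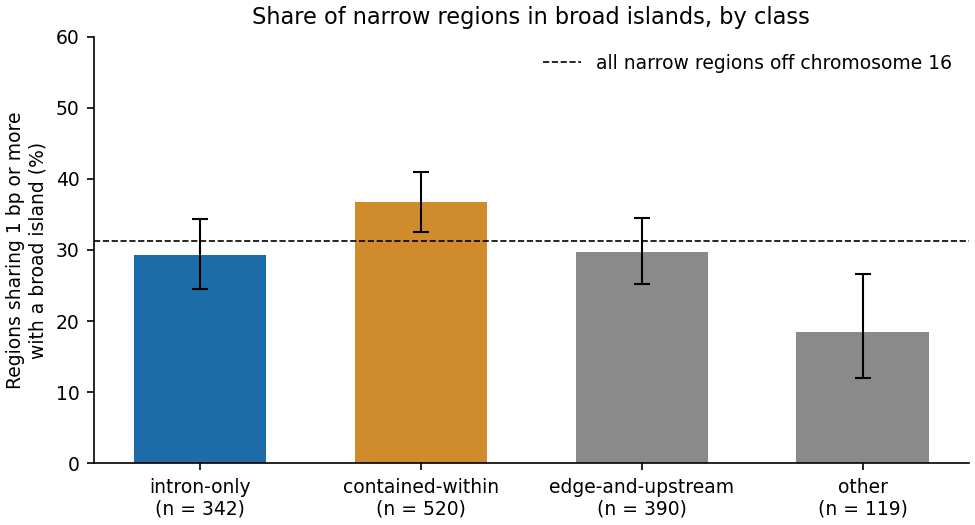
Percentage of narrow regions that share 1 bp or more with a broad island (vertical axis) in each class of narrow regions off chromosome 16 (horizontal axis). Bars are shares, error bars exact 95% binomial intervals that cover counting error only, and the dashed line is the share of all 1371 regions, 31.3%. The interval of the intron-only class, 24.5 to 34.4, holds that share.

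The islands that held intron-only regions had a median width of 8700 bp over the 100 regions (quartiles 6300 and 16100). The median was 7600 bp for contained-within regions and 4800 bp over the 8242 entries of the island list. Those entries were not reduced to distinct islands. A wide island covers more regions of any class, and widths were not tested. In all, 92 islands held the 100 regions. Pairing was read from a single entry of the island list per region. In 56 of 100 cases that entry named the host gene by symbol, and in the others a gene under another symbol. Further entries of the same island were not searched, so 56 is a lower bound. Of the 242 regions outside islands, 13 (5.37%) had an island within 1000 bp and 41 (16.9%) within 5000 bp, with a median distance of 35400.5 bp. The share in islands was 44.4% for the 169 regions whose host has listed positions and 14.5% for the other 173, where the listed hosts are by construction genes paired with an island. Within 2000 bp of the start 60 of 128 regions lay in an island (46.9%), and farther in 13 of 38 (34.2%), a difference of 12.7 points (-5.33 to 28.3, adjusted p = 0.293, Fisher's exact test).

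The 342 regions fell on 19 chromosomes. Chromosome 11 held 58, chromosomes 8 and 17 held 39 each, chromosome 2 held 35 and chromosome 19 held 26. In proportion, chromosome 19 held 7.60% of intron-only and 13.7% of contained-within regions (p = 0.00583, adjusted p = 0.111, Fisher's exact test). No chromosome passed after adjustment over 19 in Fisher's exact tests, and 1, chromosome 19, had an unadjusted p under 0.05. In an island lay 27 of 58 intron-only regions of chromosome 11 and 13 of 26 of chromosome 19. None lay in an island on 6 chromosomes, of which chromosome 6 held 14 intron-only regions and the others 8 or fewer. Island shares were not compared between chromosomes.

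The 342 regions named 333 host genes. In 15 of these more than 1 region lay in an intron, and 70 hosts (21.0%) were also the nearest gene of a narrow region of another class inside the gene, at its edge or up to 1 kb upstream. Another narrow region lay within 2000 bp of 90 intron-only regions (26.3%). Of the 342 regions, 336 had a protein-coding nearest host. The exceptions with a RefSeq match were the long noncoding RNA gene Fendrr, 2 further noncoding genes named only by number, a pseudogene and Mir5098, a microRNA gene of 0.082 kb. A region in an intron of so short a gene cannot be read as written, and the 2 regions that name Mir5098 are uncertain. The noncoding hosts and the pair of regions with several hosts that come next were picked after their values were seen. Also uncertain was the region at 21994000 on chromosome 10, which names several hosts, H60b, Raet1a, Raet1b and Raet1c. The region at 174112000 on chromosome 2 lay in introns of both Gnas, an imprinted signalling gene, and its antisense gene Nespas.

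Ptprs, a receptor tyrosine phosphatase that binds proteoglycans, held most intron-only regions, 6 in all. On chromosome 17, where Ptprs runs on the minus strand, 3 stood near the start: 56615100 to 56615300 (703 bp in), 56613900 to 56614000 (1953 bp in) and 56613300 to 56613700 (2403 bp in). All 3 lay in an island from 56610000 to 56617799 that spans the gene start. Another region, at 56601200, stood 14703 bp in, in the gap between a pair of islands. The remaining pair, from 56562200 to 56562400 and at 56562500, stood 53603 and 53403 bp in and outside islands, so Ptprs held regions both at its start and late in the gene.

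**Figure D3:**
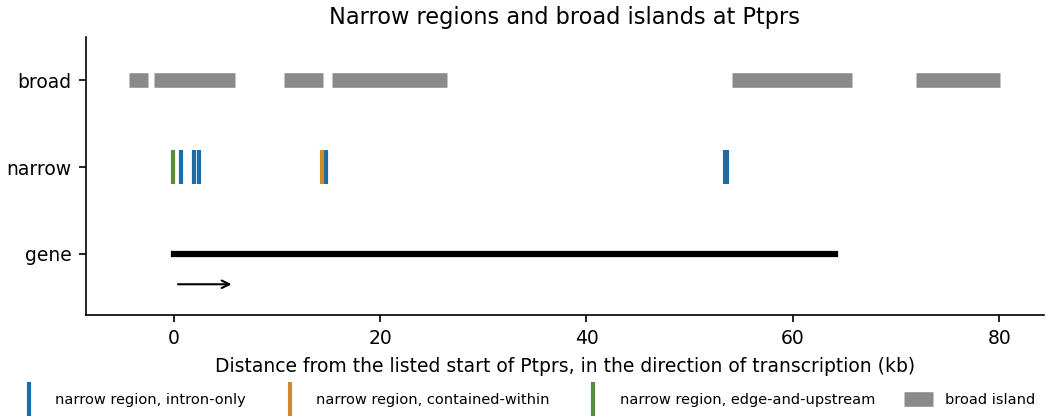
Narrow regions (ticks at their midpoints, by class) and broad islands paired with Ptprs (grey bars) along the gene (black bar, 64.1 kb by listed positions). The horizontal axis is the distance from the listed start in kb in the direction of transcription, and of 6 intron-only regions 3 lie in the island at the start.

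Several other hosts held more than 1 region within 5 kb of the listed start. Notch1, a receptor that releases a transcription activator when cleaved, had its regions, chromosome 2 positions 26358900 to 26359000 and 26357900 to 26358100, at 392 and 1342 bp in and within an island of 16800 bp. Cpt1a, the enzyme that admits long-chain fatty acids to mitochondria, had a region of 670 bp on chromosome 19 from 3323450 to 3324120, 485 bp in, and another 2000 bp in, both in an island. Syt12, a synaptotagmin of vesicle traffic, had regions 288 and 478 bp in, outside islands. Myo1c, an actin motor of membranes, had regions 290 and 440 bp in, inside an island paired with its neighbour Inpp5k. Slc16a3, which exports lactate, had regions 203 and 2203 bp in, both known to 1000 bp only. As listed, the second lay in an island that starts at 120810800. At that step it is not settled that the first, at 120810000, lay outside. Bahcc1, which encodes a chromatin reader, had regions 1740, 3740 and 4740 bp in, none in an island, each known to 1000 bp only.

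Ltbp3, Gse1, Rbfox3 and Prrx2 had intron-only regions over 10 kb into the listed gene and none nearer its start. Ltbp3, whose product holds latent TGF-beta in the matrix, had its pair on chromosome 19 at 92.2% and 96.5% of the gene's length, inside an island of 9400 bp. Gse1, a subunit of histone deacetylase complexes, had regions 47235 and 49235 bp in, inside an island of 7800 bp on chromosome 8. The listed Gse1 model is 92.5 kb long and the RefSeq gene 352.9 kb, so these distances hold for the shorter model. Rbfox3, the neuronal splicing factor known as NeuN, had regions 17886, 338886 and 339886 bp in, outside islands, in a RefSeq gene of 421.8 kb. Prrx2, a homeobox gene of mesenchyme, had regions 19614 and 19764 bp in, outside islands. Wnt3a, a Wnt ligand, had both kinds, with a region 803 bp in and another 26403 bp in, both outside islands. For Ncl and Fbn1 no distance from the start can be given. Ncl, encoding the nucleolar protein nucleolin, had a pair on chromosome 1, at 88255200 to 88255300 and 88255400 to 88255500, both in an island paired with Snora75. Fbn1, the gene of the microfibril protein fibrillin, had regions at 125331000 and 125332000 on chromosome 2, outside islands.

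The deposited list repeats regions, and the number of lines differed by class. The 342 regions filled 675 of 4304 lines, 205 of them (59.9%) with a single line and 40 (11.7%) with 4 or more. Of contained-within regions 18.5% had 4 or more lines, a difference of intron-only minus contained-within of -6.77 points (-11.4 to -1.83, adjusted p = 0.0226, Fisher's exact test). The list does not say what a repeated line stands for, so it is not read as strength. Most lines among intron-only regions went to Ncl (18, the region at 88255400), Cfl1 (15), Nol11 (11), Eif5 (10) and Ppp1r13b (10). Cfl1 encodes cofilin, which severs actin filaments, and its region on chromosome 19 from 5490720 to 5491420 was 700 bp wide and lay 616 bp in, inside an island of 1400 bp. Fosl1, an AP-1 transcription factor, had 8 lines for 5448600 to 5448830 on chromosome 19, in an island paired with Fibp. Mbd3, of the NuRD chromatin complex, had 9 lines for 79861500 to 79861700 on chromosome 10, 624 bp in, inside an island of 19600 bp paired with Tcf3.

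The widest island with an intron-only region, 60000 bp on chromosome 15, held that of Triobp, an actin-bundling protein gene, at 78813100 to 78813200. It lies before the start of the shorter listed Triobp model, 1 of 3 regions outside the listed ends of their host. Next came Tns3, a focal adhesion gene on chromosome 11, with 8564200 to 8564240 standing 318 bp in and an island of 48800 bp. Pcyt2, of phospholipid synthesis, lay in an island of 29200 bp paired with Mafg, and Sphk1, which makes sphingosine phosphate, in an island of 28000 bp paired with Ube2o. Fasn, picked after its values were seen, is the fatty acid synthase gene and had a region at 120685000 on chromosome 11, 861 bp in, inside an island of 22200 bp paired with Dus1l. Map2k7 lay in an island of 26600 bp paired with Timm44. By the entry read for each region, the islands of Triobp and Tns3 were paired with the host itself. Fasn, Map2k7, Pcyt2 and Sphk1 are also paired with an island in the list. Whether it is the same island was not checked.

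By function, hosts were spread thinly over many gene groups. Of 21221 protein-coding genes off chromosome 16, 323 (1.52%) had an intron-only region. Of 26 gene lists, 19 had a share above this and 4 had no member with a region. The counts per list are small, and no list was tested, so none is called. Over these lists, 59 distinct genes had an intron-only region, and 20 of them had one in an island. No member had a region among 19 lung epithelium markers, 24 immune cell markers, 17 endothelial and stromal markers and 45 PI3K, Akt and mTOR genes. Of 23 markers of mammary tumour epithelium, 2 did: Ovol1, an epithelial transcription factor gene, with 5559930 to 5559970 on chromosome 19 in an island of 18200 bp, and Cldn7, a tight junction gene, outside islands. Absence from the list says nothing of whether these cells were in the tissue.

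**Figure D4:**
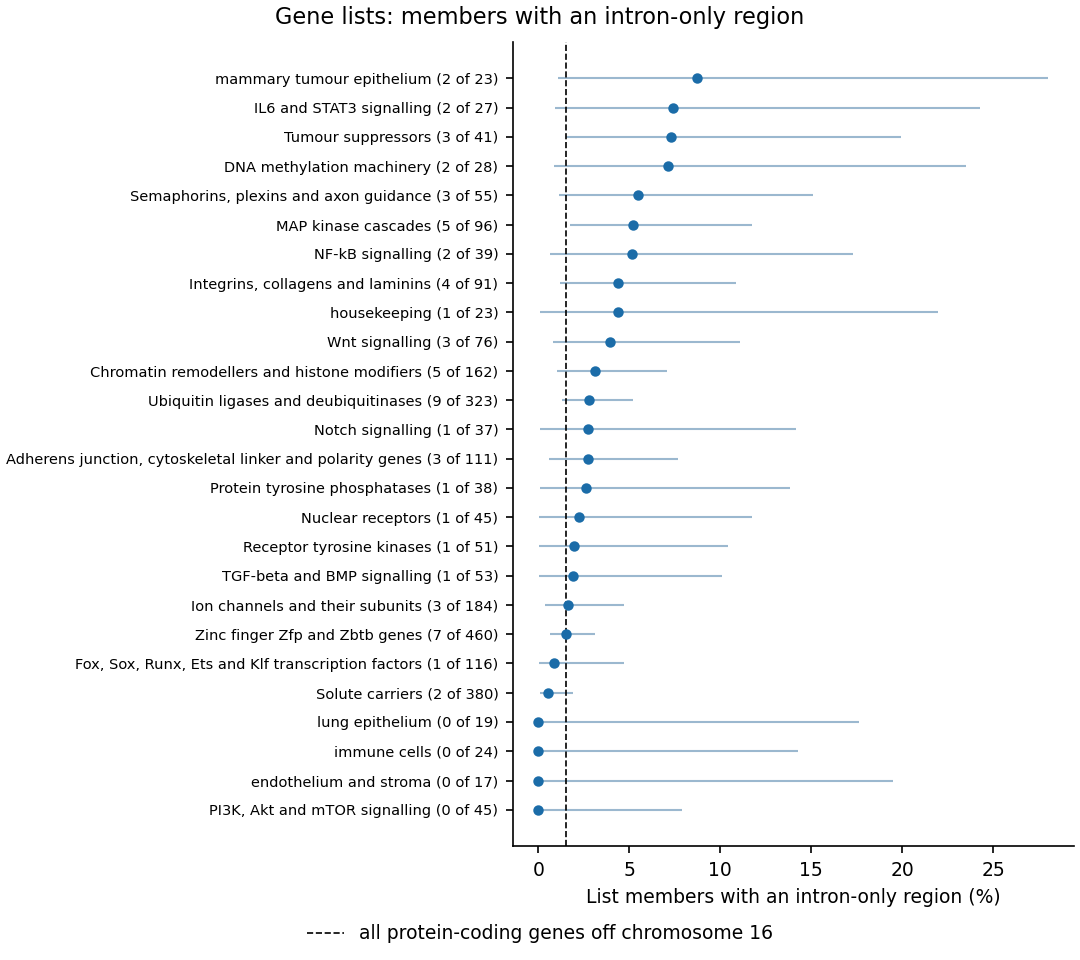
Percentage of each gene list's members with an intron-only region (horizontal axis, points) for 26 lists (vertical axis, with counts), with exact 95% binomial intervals as lines. The dashed line is the share over all protein-coding genes off chromosome 16, 1.52%, and the intervals run from 0.0638 to 1.89% for 380 solute carriers and from 1.07 to 28.04% for 23 mammary tumour markers, both with 2 genes that have a region.

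Signalling genes with an intron-only region came from several pathways. In the MAP kinase list 5 of 96 had one (5.21%). Dusp5, a phosphatase of ERK, lay in an island with its region 693 bp in, and Map2k7, which activates JNK, in an island of 26600 bp with its region 471 bp in. Araf, Map3k3 and Spry4 lay outside islands. In the IL6 and STAT3 list Stat5a, a transcription factor downstream of cytokine receptors, had its region 1336 bp in and in an island, and the receptor gene Lifr lay outside (2 of 27). Among Wnt genes 3 of 76 had one, the ligands Wnt3a and Wnt3 and the receptor kinase gene Ryk, none in an island. The region of Wnt3 stood 35512 bp in. NF-kB signalling had 2 of 39, Bcl10 and Birc3, both outside islands. Notch signalling had Notch1 (1 of 37), TGF-beta and BMP signalling Ltbp3 (1 of 53), tyrosine phosphatases Ptprs (1 of 38) and receptor tyrosine kinases Ryk (1 of 51).

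Adhesion and guidance genes made up few of the hosts, but each list's share was above the 1.52% of all protein-coding genes off chromosome 16. The interval of each list held that share, and none was tested. Where a start is listed, distances are given beside the 77.1% of all 166 regions within 2000 bp. Integrins, collagens and laminins had 4 of 91 (4.40%): Lama5 in an island, and 3 outside, among them Agrn and Col26a1. Lama5 encodes a chain of laminin, a basement membrane protein, and its region stood 564 bp in. That of Agrn, a basement membrane proteoglycan gene, stood 597 bp in. Semaphorins and axon guidance genes had 3 of 55 (5.45%), with Sema3f 806 bp in and in an island, and Sema4g and Efnb2 outside, 217 and 668 bp in. Junction and cytoskeletal linker genes had 3 of 111 (2.70%): Myo1c, Cdh11 and Cldn7.

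Among genes of chromatin and transcription, the DNA methylation list had 2 of 28, Mbd3 in an island and Uhrf2, a reader of hemimethylated DNA, outside. Chromatin remodellers and histone modifiers had 5 of 162 (3.09%): the bromodomain gene Brd2 and the histone demethylase gene Kdm6b in islands, and Ing1, Kdm2b and Ncoa5 outside. Brd2 had its region 552 bp in. The region of Kdm2b lay before the start of a listed model shorter than the RefSeq gene. Tumour suppressors had 3 of 41, Ing1, Rassf5 and Zmynd11, all outside islands, with Ing1 1585 bp in and Rassf5 755 bp in. Nuclear receptors had Nr5a1 (1 of 45), and the Fox, Sox, Runx, Ets and Klf list had Sox10 (1 of 116), 1220 bp in and in an island of 20200 bp. Zinc finger genes had 7 of 460, a share of 1.52%, at the background, with Zfp335 and Zbtb12 in islands.

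The remaining lists covered transport, protein turnover and housekeeping. Solute carriers had 2 of 380 (0.526%), Slc16a3 and the sulphate transporter gene Slc26a11, the latter 130 bp in and in an island. Ion channels had 3 of 184, Clcn7, Kcnk10 and Kcnk12, outside islands. Ubiquitin ligases and deubiquitinases had 9 of 323 (2.79%), with the deubiquitinase genes Usp10 and Usp36 in islands at 249 and 558 bp in. Housekeeping genes had Vps29 (1 of 23).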

How the data were processed

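The authors deposited 2 lists covering the series. Bowtie2 2.10, MACS 1.4, SICER and the build mm10 are named in the submitters' processing notes. The MACS list is itself named for MACS2. Pooling of libraries before calling is unstated. The deposited values are base positions and distances, with no count or score. Lines were reduced to distinct regions by chromosome, start and end, and an end written as a question mark was set to the start. Genes were matched to RefSeq by symbol, transcript accession or unique synonym (341 of 342 regions). A region lay in an island when they shared 1 bp. Distances from gene starts use the gene positions of the SICER list. Classes were compared by two-sided Fisher's exact tests with Benjamini-Hochberg adjustment, in scipy 1.17.1 and statsmodels 0.14.6 under Python 3.11.15. Intervals of shares are exact binomial and those of differences are Newcombe's, both at 95% and for counting error only. Neighbouring regions share genes and islands and are not independent. The overlap step was tested on simulated data. Named genes were those with 2 or more intron-only regions, up to 6 hits per list, and the 10 regions in the widest islands and 10 with most lines. Members and lists were chosen with earlier results of these data known. A gene list and a gene with a region are not reported here.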

Additional observations from a re-analysis of the deposited data

How the results depend on the processing

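The share of intron-only regions in islands was 23.7% with islands of at least the median width and 34.5% with every deposited line counted, and stayed within its interval of 24.5 to 34.4% in the 7 other settings tried. Against contained-within regions, the difference no longer passed by the midpoint or with 50% overlap (-6.91 points each), with regions widened by their rounding step (-7.07), steps of 10 or 100 bp only (-8.46), islands of at least the median width (-3.43), 1 region per gene (-6.74), chromosome 16 included (-6.44), chromosomes 8 and 19 left out (-3.78) or within chromosomes (-5.51), with adjusted p from 0.0521 to 0.381. With every line counted it was -16.9 points, but lines of a region share its position and are not independent. What a repeated line stands for is not stated. Against edge and upstream regions the difference changed sign with widened regions (0.81), steps of 10 or 100 bp (3.13), wide islands (1.63), chromosome 16 included (1.55) and within chromosomes (0.062), and passed in none. The excess over contained-within regions in genes of 50 kb or more fell to 3.96 points with steps of 10 or 100 bp. It passed at lengths of 20 and 100 kb, with 1 region per gene and with chromosome 16. The alternatives without chromosomes 8 and 19 and within chromosomes, and 6 of the 9 class comparisons, were chosen after seeing the data. The adjusted p of the first difference was 0.0488 over 9 comparisons, 0.0542 over 8 and 0.0407 over the 3 planned. The causes were not tested. A stricter threshold for narrow regions could not be tried, since the list holds no score. No paired analysis was possible because neither list separates the libraries, and for that reason none could be left out.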
